A study of Mus musculus with 6 samples.

Results

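The genes described here are 10 Kruppel-like factors, Klf2, Klf3, Klf4, Klf5, Klf6, Klf7, Klf9, Klf10, Klf13 and Klf15, found by gene symbol among the 25302 rows of a gene expression table. All 10 were present and all 10 passed the filter on low values. RNA sequencing had been done on mouse liver biliary epithelial cells, which form the lining of the bile ducts. The 3 Control samples carried floxed alleles of Sox9, a gene for a transcription factor of the duct lineage, and no Cre transgene per the labels (genotype Sox9fl/fl). The 3 Sox9cKO samples carried the same floxed alleles with the AlbCre transgene (genotype Sox9fl/fl:AlbCre+/-), in which the albumin promoter drives Cre recombinase. An effect of the Cre transgene itself cannot be told apart from that of the Sox9 deletion, since no Control sample carried it. Age, sex and the way the cells were isolated are not given in the sources used here. Nor do the labels say that the samples came from separate animals, so p-values measure only the spread between these samples.

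Kruppel-like factors are transcription factors that bind GC-rich and CACCC sequences through zinc fingers at the C-terminal end of the protein. Their N-terminal parts differ and set the partners they recruit. Klf2, Klf4, Klf5, Klf6 and Klf7 are grouped as factors that mostly activate transcription, Klf3 recruits the corepressor CtBP, and Klf9, Klf10 and Klf13 recruit the corepressor Sin3A. Klf15 falls outside these groups and is known for its part in amino acid and glucose metabolism. Several of the genes respond within minutes to hours to growth factors, stress, shear flow or glucocorticoids, and Klf5 and Klf4 are well known from gut and skin epithelium.

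Promoter sequence is shown for Klf6, which had the lowest p-value of the 10, and for Klf2, whose level varied most between samples. Both are the 250 bases before the start site from RefSeq on GRCm38.p6, plus strand, and lie at chr13:5861239-5861488 for Klf6 and chr8:72318812-72319061 for Klf2. Capitals mark the GC box GGGCGG in Klf6, and in Klf2 the overlapping matches on both strands to CTAAATTTA, a sequence of the kind bound by MEF2 factors, which are known activators of Klf2. The last motif was added after the Klf2 window had been read.
Klf6: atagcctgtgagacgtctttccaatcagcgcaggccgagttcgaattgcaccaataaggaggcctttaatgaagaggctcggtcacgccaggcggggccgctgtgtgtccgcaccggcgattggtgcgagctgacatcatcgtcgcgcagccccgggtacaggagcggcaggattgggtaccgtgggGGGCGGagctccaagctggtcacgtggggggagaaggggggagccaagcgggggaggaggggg
Klf2: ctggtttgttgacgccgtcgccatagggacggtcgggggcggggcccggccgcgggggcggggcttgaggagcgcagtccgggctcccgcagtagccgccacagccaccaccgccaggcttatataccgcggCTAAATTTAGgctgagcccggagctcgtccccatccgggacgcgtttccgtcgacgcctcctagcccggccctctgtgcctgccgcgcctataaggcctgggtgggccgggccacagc

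A promoter window was at hand for 8 of the 10 genes, all but Klf5 and Klf10. On either strand, GGGCGG occurred in 7 of these 8 windows (all but Klf9), against 32.7% of 32851 windows of the same length. The CACCC element to which the family itself can bind occurred in 6 of the 8 (Klf2, Klf3, Klf7, Klf9, Klf13 and Klf15), against 52.0%. The Sox-type core ACAAT was found in the Klf9 window alone, against 27.7% of all windows. TATAAA and the cyclic AMP response element TGACGTCA occurred in none of the 8 (12.4% and 1.55% of all windows). CTAAATTTA, added after the Klf2 window had been read, occurred in Klf2 alone (0.186%), so its match there was known beforehand. GC content of the 8 windows ran from 59.2% in Klf7 to 78.4% in Klf3, above the median of 52.4% over all windows. The windows are GC-rich, and GGGCGG is made of G and C only. A match to a motif is a description of the letters and not a bound site.

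The 6 libraries held 11883496 to 16191990 reads assigned to genes. Sox9 fell from 6182 ± 127 normalized reads in Control to 3289 ± 108 in Sox9cKO (SD, n = 3 each; log2 difference -0.91, limma adjusted p 0.00501), so each library followed its label. The table has 1 value per gene, so the floxed part of Sox9 and the rest of the gene are not told apart. A gene is called here where limma gave an adjusted p under 0.05, which it did for 2.97% of 17153 tested genes. The biliary markers Krt19, Epcam and Sox9 had at least 3165 normalized reads in every sample, and 2 of the 11 biliary markers listed were called, Sox9 lower and Krt7 higher (adjusted p 0.0408, up to 0.214 over the alternatives, with the call lost in 5 of the 6 fits that left out 1 sample). Under limma with the replicate number as a block, Tspan8 was called higher too, and Pkhd1 and Spp1 lower (adjusted p 0.0140 to 0.0351). The block fit called 8.05% of all tested genes. The 11 biliary markers summed to 120922 to 166197 in Control and 106126 to 140348 in Sox9cKO. Of these, 7 had a log2 difference below 0 and 4 above it, with a median of -0.16. Sox9, the deleted gene, is part of these sums and of this median. Signal of other cell types was present too. The summed count of 10 endothelial markers ranged from 1630 to 36284 in Control and from 5983 to 37166 in Sox9cKO, with replicate 3 lowest in both groups and no marker called by limma or edgeR (1 with an unadjusted p under 0.05). All 10 nevertheless had a log2 difference above 0, with a median of 1.09, and Vwf was called higher under the block (limma adjusted p 0.0420). The 12 hepatocyte markers summed to 24978 to 38709 in Control and 49950 to 81041 in Sox9cKO, with 5 called higher (Serpina1b, Fgb, Serpina1a, Apob and Tat) and 6 under the block. Of the 12, 10 had a log2 difference above 0 and 2 below it, with a median of 0.78. Of 8 tested leukocyte and erythroid markers, 7 had a log2 difference below 0, and the median over all 8 was -0.58. None of these 7 was called with limma, and Lyz2 was called lower under the block (adjusted p 0.0418). The eighth, Csf1r, was called higher, a call lost without Control replicate 1 or 3 or Sox9cKO replicate 2, and the summed value of the 9 markers in the table was 1066 to 1157 in Control and 1530 to 1834 in Sox9cKO. The 10 mesenchymal markers summed to 2240 to 2950 and 2437 to 5303 (none called by limma or edgeR, and 0 with an unadjusted p under 0.05). In bulk samples, fewer cells of a type and less RNA per cell cannot be told apart.

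The family was dominated by Klf6 and Klf5. Levels can be compared between genes only per length, so normalized reads were divided by the kilobases of exon of each gene. Klf6 came first with 3168 ± 205 reads per kilobase in Control and 2155 ± 219 in Sox9cKO (SD, n = 3), above 99.4% of the tested genes with a known length. Klf5 followed with 1053 ± 187 in Control and 1376 ± 370 in Sox9cKO reads per kilobase. Klf4 had 730 ± 52.7 and 622 ± 151, Klf10 538 ± 28.3 and 421 ± 21.3, and Klf2 395 ± 147 and 476 ± 226 reads per kilobase. Klf9 (241 ± 48.2 and 205 ± 16.3), Klf13 (190 ± 34.0 and 175 ± 30.7), Klf3 (162 ± 23.8 and 169 ± 12.0) and Klf7 (178 ± 51.8 and 146 ± 36.1) lay close together, in the same unit and order of groups. Klf15 was last, at 16.8 ± 6.44 and 11.1 ± 4.79 reads per kilobase, above only 21.5% of the tested genes.

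Over all 6 samples, the values per length of Klf6 did not overlap those of Klf5, nor those of Klf5 those of Klf4, and Klf15 lay below every other member. Klf4 exceeded Klf10 in all 6 samples, and within each genotype their values did not overlap. Klf10 lay above Klf2 without overlap in Control, while in Sox9cKO the values of both overlapped. From Klf2 down through Klf9, Klf13 and Klf3 to Klf7, each gene overlapped the next within both genotypes. Overlap of ranges does not make these neighbours equal within a sample. Klf2 lay above Klf9 in every sample but Sox9cKO replicate 3 (215 against 216 reads per kilobase). In the 3 Control samples Klf6 took 43.4% to 47.6% of the normalized reads of the 10 genes, and in the 3 Sox9cKO samples 30.8% to 39.7%. The share of Klf5 was 15.4% to 21.2% in Control and 20.8% to 30.9% in Sox9cKO. These shares are of reads and so weigh long transcripts more. The 2 ranges of Klf6 did not overlap, while those of Klf5 did.

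**Figure D1:**
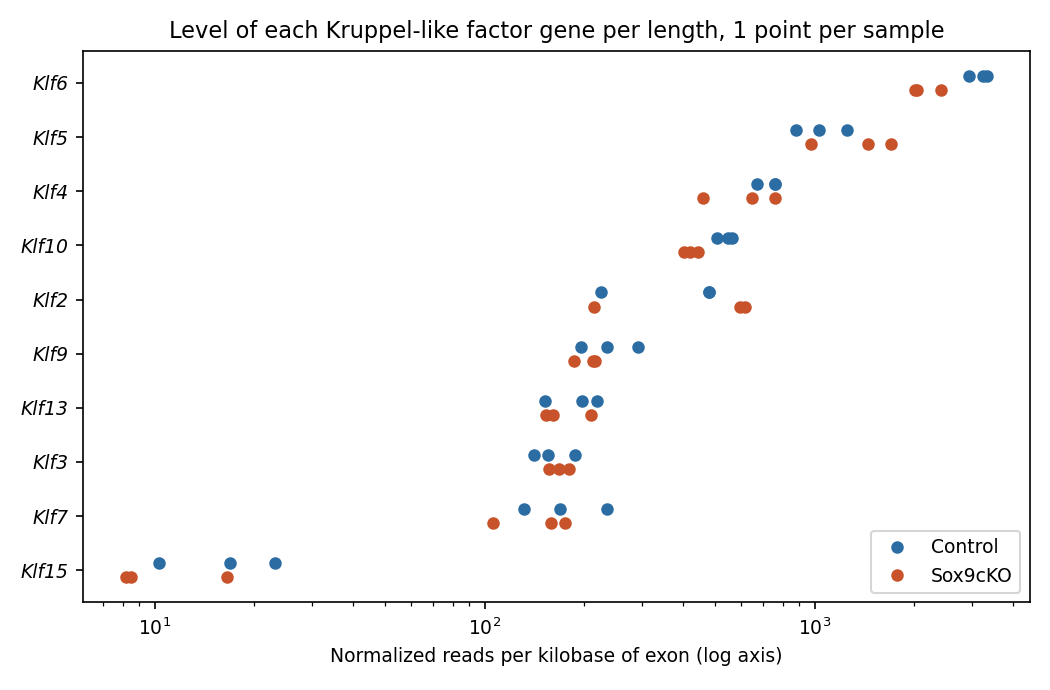
Normalized reads per kilobase of exon (log axis) of the 10 Kruppel-like factor genes, 1 point per sample, Control in blue and Sox9cKO in orange. Klf6 lies highest, apart from Klf5 and Klf4 below it, and Klf15 lies lowest.

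The comparison of Control and Sox9cKO asked whether loss of Sox9 in biliary cells goes with other levels of these factors. With limma, none of the 10 genes was called, against 2.97% of all tested genes. At an unadjusted p under 0.05 there were 2, Klf6 and Klf10, against 17.8% of all tested genes. edgeR called none of the 10 (2.86% of all tested genes), and DESeq2 called Klf6 and Klf10 (7.08%). When the replicate number entered limma as a block, Klf6 alone was called, against 8.05% of all tested genes. The median log2 difference of the 10 was -0.24, against 0.036 for all tested genes, with 7 below 0 and 3 above. In Klf6 and Klf10 every Sox9cKO sample lay below every Control sample, which held for 10.8% of tested genes, and no member lay wholly above (13.4%).

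**Figure D2:**
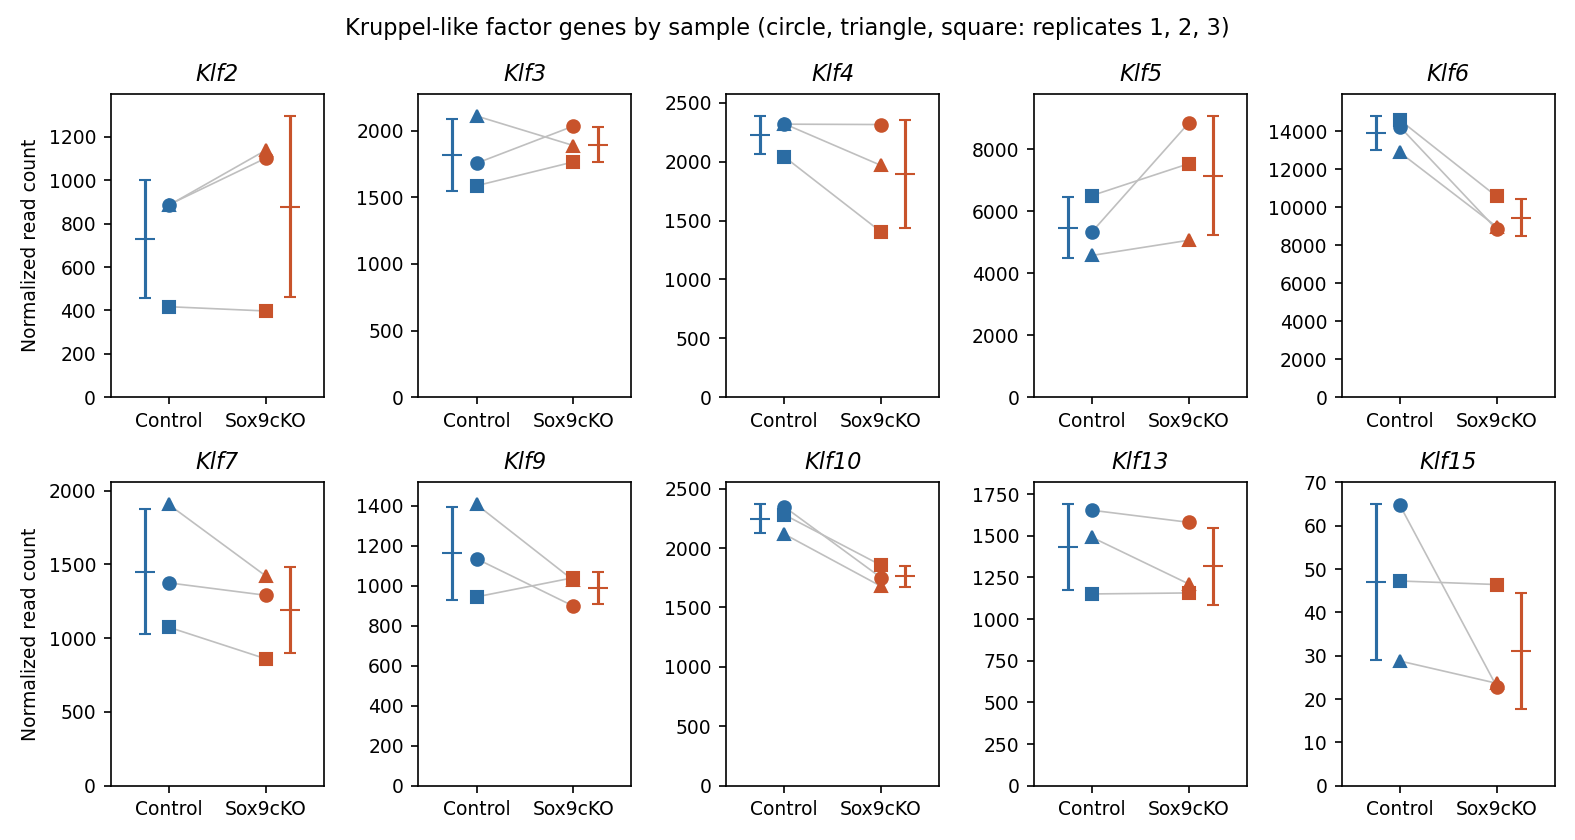
Normalized read count of each of the 10 genes in the 3 Control and 3 Sox9cKO samples. Circles, triangles and squares are replicates 1, 2 and 3, grey lines join samples of the same number, and the bars at the sides are mean ± SD. The groups are separate in Klf6 and Klf10 and overlap in the other 8.

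Among the activator group, Klf6, an early response factor known from injured liver and an activator of TGF-beta genes, had normalized read counts of 14242, 12891 and 14596 in Control replicates 1 to 3 and of 8838, 8978 and 10571 in Sox9cKO replicates 1 to 3. All 3 Sox9cKO values were thus below the lowest Control value, and the mean of Sox9cKO stood at 68.0% of that of Control. limma gave a log2 difference of -0.56 ± 0.12 (SE; 95% interval -0.84 to -0.27), with a limma adjusted p of 0.0620 that missed the threshold. Klf6 passed when the block was added (limma adjusted p 0.0235). Within the same-numbered pairs the log2 differences were -0.69, -0.52 and -0.47 for replicates 1 to 3. Over 18 alternatives the log2 difference stayed between -0.64 and -0.51, with adjusted p-values from 0.00112 to 0.226 and a call in 4.

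Klf5, which drives proliferation in gut epithelium, went the other way in its mean. Its normalized read counts were 5344, 4578 and 6513 in Control and 8860, 5069 and 7542 in Sox9cKO. The groups overlapped, since Sox9cKO replicate 2 lay below 2 of the Control samples, although each Sox9cKO sample exceeded the Control of its number. The log2 difference was 0.36 ± 0.23 (SE), with a 95% interval of -0.17 to 0.90 (limma adjusted p 0.470), so a rise of up to 1.86-fold and a slight decrease both lie inside it.

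Klf4, a factor of epithelial differentiation and of quiescent endothelium, had counts of 2318, 2321 and 2042 in Control and 2315, 1968 and 1403 in Sox9cKO. Only Sox9cKO replicates 2 and 3 lay below the Control range, and replicate 1 differed from its same-numbered Control by -0.0020 on the log2 scale. Between the groups the log2 difference was -0.26 ± 0.19 (SE; 95% interval -0.70 to 0.18; limma adjusted p 0.536).

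Klf7, known from neurons and fat cells, had counts of 1374, 1905 and 1074 in Control and 1290, 1422 and 860 in Sox9cKO. Samples of the same number ranked alike in both groups, with replicate 2 highest and replicate 3 lowest, and every Sox9cKO sample lay below its Control. A log2 difference of -0.28 ± 0.26 (SE) was found without the block (limma adjusted p 0.642), and its SE was 0.11 with it (adjusted p 0.169).

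Klf2, the shear-responsive factor of endothelium and of resting T cells, varied most between samples, by 2.86 times from lowest to highest (Klf15 by 2.83 times). Its counts were 887, 884 and 417 in Control and 1101, 1138 and 397 in Sox9cKO. Replicate 3 was by far the lowest in both groups, and the groups overlapped. On the log2 scale the difference was 0.20 ± 0.47 (SE; 95% interval -0.90 to 1.30; limma adjusted p 0.871), and it turned to -0.16 without Control replicate 3, to -0.035 without Sox9cKO replicate 1 and to -0.059 without Sox9cKO replicate 2. The summed endothelial markers were 11189, 36284 and 1630 in Control and 28403, 37166 and 5983 in Sox9cKO, so the pair of samples with the least endothelial signal had the least Klf2. Endothelial signal varied by 22.8 times, far more than Klf2, and its part in the level of Klf2 was not tested.

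**Figure D3:**
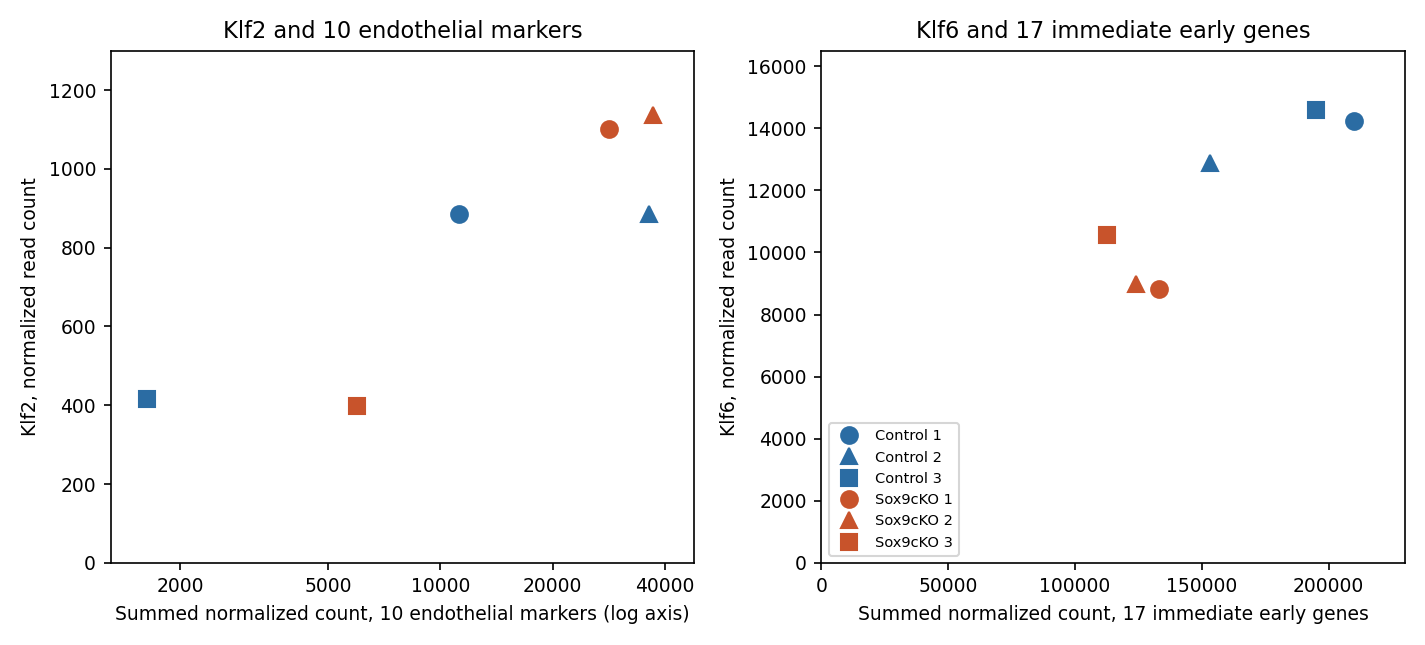
Left, Klf2 normalized read count against the summed count of 10 endothelial markers (log axis). Right, Klf6 against the summed count of 17 immediate early genes. Each point is 1 sample, coloured by genotype and shaped by replicate number. Both replicate 3 samples are lowest in Klf2 and in endothelial signal, and the Sox9cKO samples are lower than the Control samples in both quantities on the right.

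Of the corepressor-binding members, Klf10, also called TIEG1 after its early induction by TGF-beta, was the most even within groups. It had counts of 2347, 2117 and 2280 in Control and 1750, 1677 and 1854 in Sox9cKO. All Sox9cKO values lay below all Control values, with a coefficient of variation of 5.26% in Control and 5.05% in Sox9cKO. limma put the log2 difference at -0.35 ± 0.10 (SE; 95% interval -0.60 to -0.11), but the limma adjusted p of 0.135 missed the threshold. It was 0.0701 with the block, while DESeq2 gave an adjusted p of 0.0348.

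Klf9, induced by glucocorticoids and thyroid hormone, had counts of 1134, 1405 and 944 in Control and 897, 1026 and 1039 in Sox9cKO. The lowest sample was Sox9cKO replicate 1, but Control replicate 3 lay below both other Sox9cKO samples, so the groups overlapped (log2 difference -0.22 ± 0.17, SE; limma adjusted p 0.559). Klf13, known as a regulator of chemokine expression in T cells, had counts of 1653, 1491 and 1151 in Control and 1581, 1211 and 1157 in Sox9cKO. Its groups covered nearly the same range, and the log2 difference of -0.12 ± 0.18 (SE) had a 95% interval of -0.55 to 0.31 (limma adjusted p 0.789).

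Klf3, the CtBP-binding repressor, had the narrowest range over all 6 samples. Its counts were 1755, 2110 and 1586 in Control and 2034, 1888 and 1765 in Sox9cKO, which lay within the Control range. Its log2 difference was 0.069 ± 0.14 (SE; limma adjusted p 0.844). The 95% interval from limma ran from -0.25 to 0.39, or from 0.840-fold to 1.31-fold of Control.

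Klf15 was the least expressed, with 23 to 77 reads per library before scaling. Its normalized counts were 64.7, 28.8 and 47.2 in Control and 22.9, 23.6 and 46.4 in Sox9cKO. The 2 lowest samples were Sox9cKO replicates 1 and 2, but Sox9cKO replicate 3 lay among the Control values. The log2 difference of -0.59 ± 0.41 (SE; limma adjusted p 0.521) was as large as that of Klf6 with an interval from -1.55 to 0.38, so a change of that size was not detectable in Klf15 with these samples.

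**Figure D4:**
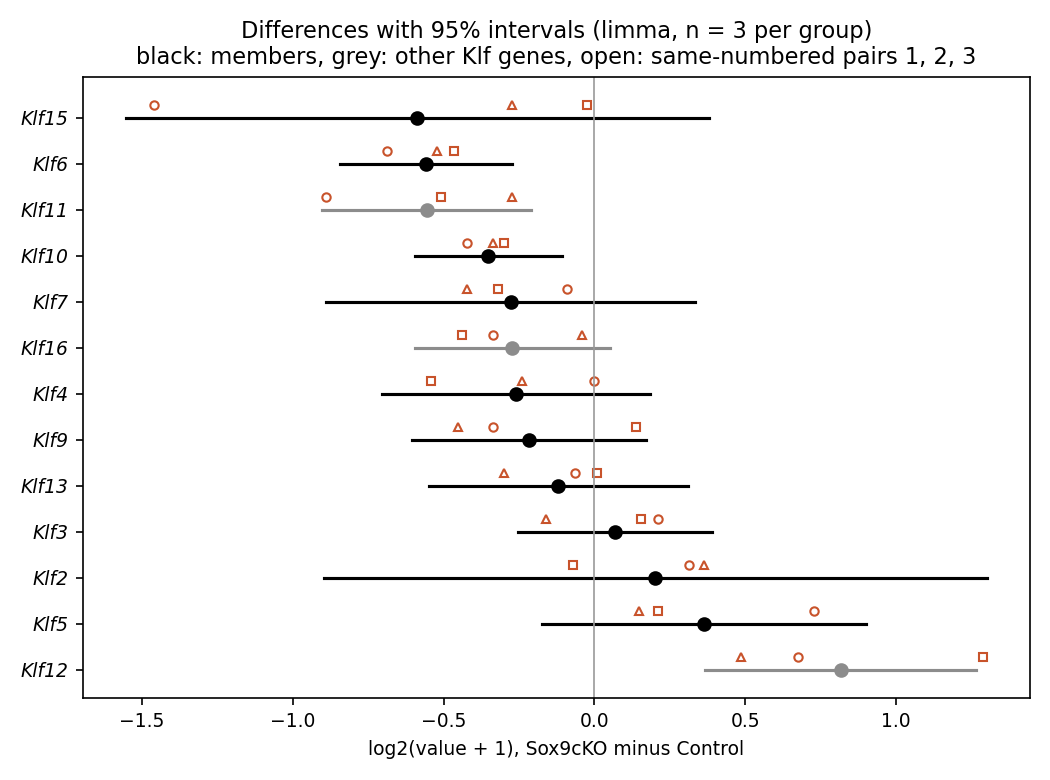
Difference of Sox9cKO minus Control in log2(value + 1) for the 10 members (black) and for Klf11, Klf12 and Klf16 (grey), with 95% intervals from limma (n = 3 per group). Open circles, triangles and squares are the differences within same-numbered pairs 1, 2 and 3. The intervals of Klf6 and Klf10 lie below 0 among the members, before adjustment for the number of genes tested.

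The other genes of the family were Klf1, Klf8, Klf11, Klf12 and Klf16 and the related Sp factors, of which 8 had enough reads to test. Sp4 alone was called, and fell from 404 ± 30.7 to 201 ± 13.5 normalized reads (SD, n = 3; log2 difference -1.003, limma adjusted p 0.0119). It lost its call without Control replicate 1 and without Control replicate 3 (adjusted p up to 0.151 over the alternatives). Klf11, the closest relative of Klf10, had counts of 765, 624 and 733 in Control and 413, 516 and 515 in Sox9cKO (log2 difference -0.56, limma adjusted p 0.109). Klf12, a CtBP-binding relative of Klf3, had counts of 272, 351 and 252 in Control and 434, 491 and 618 in Sox9cKO (log2 difference 0.82, limma adjusted p 0.0783, and 0.0405 under the block). The groups of both genes were separate, in opposite directions. Of the 8 tested genes, 3 had every Sox9cKO sample below every Control sample, namely Klf11, Klf16 and Sp4 (10.8% of all tested genes). Klf12 alone lay wholly above (13.4%). Klf16 had a log2 difference of -0.27 (limma adjusted p 0.365). The median log2 difference of the 8 was -0.20, against 0.036 for all tested genes.

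Few genes known to act with or upstream of these factors had an unadjusted p under 0.05 with limma, against 17.8% of all tested genes. None of 18 cofactors and turnover enzymes, among them Ctbp1, Ctbp2, Sin3a and Ep300, was called with limma, with or without the block (median log2 difference 0.039), nor by edgeR, and 2 had an unadjusted p under 0.05. None of 14 genes of the ERK5, MEF2 and CCM pathway, which controls Klf2 and Klf4 in endothelium, was called by limma or edgeR either (median 0.0075, 1 with an unadjusted p under 0.05), and with the block Heg1 was called higher (limma adjusted p 0.0109). Of 10 endothelial targets of Klf2 and Klf4 none was called by limma or edgeR. Their median log2 difference was 0.80, with 8 above 0 and 2 below, and 4 had an unadjusted p under 0.05. The summed endothelial markers varied as given above. With the block Edn1 was called higher (adjusted p 0.0168) and Adamts1 lower (0.0291).

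Among 14 tested targets of Klf4 and Klf5 in epithelium, Egfr, the receptor for epidermal growth factor, was called and rose from 1714 ± 404 to 4426 ± 1337 normalized reads (SD, n = 3; log2 difference 1.34, limma adjusted p 0.0485), while the median of the list was 0.015. The call of Egfr was lost in 11 of 18 alternatives, edgeR among them, and in 5 of the 6 fits that left out 1 sample. With the block Pdgfa was called higher too (adjusted p 0.0401). Neither this list nor that of the endothelial targets was split by the direction in which the factors act. Their medians are thus no measure of the activity of the factors. Of 10 metabolic targets of Klf15, Tat, tyrosine aminotransferase, rose (log2 difference 2.26, limma adjusted p 0.00726) and no other was called (median 0.16). Tat is a hepatocyte marker as well, and 10 of the 12 hepatocyte markers, Tat among them, had a log2 difference above 0, as given above.

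The 17 immediate early genes, listed together as immediate early and dissociation genes, had a median log2 difference of -0.51, with 13 below 0. Klf2, Klf4, Klf6 and Klf10 are often added to this class. An unadjusted limma p under 0.05 was found for 12 of the 17 (17.8% of all tested genes). In 8 every Sox9cKO sample lay below every Control sample (10.8%), and in 1 above (13.4%). Atf3 fell (log2 difference -1.01, limma adjusted p 0.0263) and Dusp1 rose (0.87, adjusted p 0.0151). Both calls were lost without Control replicate 1 and without Control replicate 3, and that of Atf3 also without any of the 3 Sox9cKO replicates (adjusted p up to 0.224 over the alternatives). With the replicate block 7 were called lower and 1 higher (8.05% of all tested genes in either direction). Their summed count was 153286 to 210125 in Control and 112629 to 133303 in Sox9cKO, so the groups were separate here as they were in Klf6. The part of this shift in the values of Klf6 and Klf10 was not tested.

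Of 12 genes induced by TGF-beta, the signal that Klf10 is named for, 4 were called and all 4 rose, namely Ltbp2 (log2 difference 4.72), Fn1 (1.89), Tgfbr2 (1.14) and Inhba (2.19), with limma adjusted p-values of 0.00123 to 0.0122, and Pmepa1 was called higher under the block alone (adjusted p 0.0205). Over all 12 the median log2 difference was 0.47, with 8 above 0 and 4 below. The list was written with earlier results for several of these genes known, so its direction is not independent evidence. Ltbp2 and Fn1 kept their calls in all 18 alternatives. Tgfbr2 lost its call without Control replicate 1 or 3, and Inhba without Sox9cKO replicate 3. The values of Klf10 given above were lower in the same Sox9cKO samples. Of 12 genes of the glucocorticoid response, which includes Klf9 and Klf15 in many tissues, Fkbp5 (log2 difference 1.16, limma adjusted p 0.0176) and Dusp1 were called higher and none lower (median 0.057). Fkbp5 lost its call without Control replicate 1 or 3 and without Sox9cKO replicate 1 or 3. With the block Sult1a1 was added above 0 and Tsc22d3 below it (adjusted p 0.0188 and 0.0255). None of 19 genes of the circadian clock and its output, through which Klf9, Klf10 and Klf15 cycle, was called by limma or edgeR. Their median log2 difference was -0.059, with 8 above 0 and 11 below. An unadjusted limma p under 0.05 was found for 6 (17.8% of all tested genes). In 5 every Sox9cKO sample lay below every Control sample (10.8%), and in 3 above (13.4%). With the block Bhlhe41 was called higher and Arntl, Cry1 and Hlf lower (limma adjusted p 0.0190 to 0.0462), against 8.05% of all tested genes.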

How the data were processed

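The deposited table holds a normalized signal, read counts of each gene over 1 size factor per sample, as its values show. Per the submitters' processing notes DESeq2 1.36.0 and the build GRCm39 were used. Aligner, counting program, annotation, strand setting and use of molecular identifiers are not given in the sources used here. Dividing by the smallest value above 0 returned whole numbers of reads in 100% of cases, to within 0.001 reads. Rows had at least 10 reads in total. Columns were matched by the number in the sample titles.

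Genes with a mean of at least 10 were tested as log2(value + 1) with limma 3.58.1 in R 4.3.3 (intensity trend, two-sided, Benjamini-Hochberg over all 17153 genes), so fold changes of low genes are understated. Standard errors and intervals come from that fit. Same-numbered samples deviated together (r across genes 0.207, 0.472 and 0.542), the numbers coming from the sample titles, so limma with the number as a block is printed, by gene or as a count, where it changes a call. edgeR 4.0.16 and DESeq2 1.42.0 were run on the recovered reads. Scripts were tested on simulated reads.

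Members and lists were chosen with earlier results of these data known. Genes named were all members, Sox9, called genes of the lists (at most 5 each), and genes named after their values were seen. The last were Klf11, Klf12, Klf16, genes called only with the block, and markers listed with no value. Exon lengths came from GENCODE M21 on GRCm38, matched by identifier for 99.2% of tested genes. Antisense genes overlapping Klf3 and Klf7 had a mean of at most 10.5 normalized reads where listed. Some genes first listed are not reported here, and the counts of their lists leave them out.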

Additional observations from a re-analysis of the deposited data

How the results depend on the processing

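Against no Kruppel-like factor called with limma, quantile normalization called 1 (Klf6), the replicate block 1 (Klf6), edgeR with the replicate block 1 (Klf6) and DESeq2 called 2 (Klf6 and Klf10), while every fit that left out 1 sample called 0. The calls over all genes were 510 with limma, 1381 with the replicate block, 1160 with edgeR and the replicate block and 1214 with DESeq2, each including all 510, and 200 to 389 when 1 sample was left out. Without replicate 3 in both groups, an alternative chosen after seeing the data, 50 genes were called, none of them a member, and Sox9 had an adjusted p of 0.0972. What causes these shifts was not tested. Klf2 ranged from -0.16 to 0.70 in log2 difference when 1 sample was left out. Klf3 turned to -0.021 with quantile normalization and ranged from -0.024 to 0.18 when 1 sample was left out. In the other 8 members the sign held in every alternative run, but the size moved when 1 sample was left out, from -0.42 to -0.059 in Klf4, -0.47 to -0.059 in Klf7, -0.36 to -0.070 in Klf9, -0.27 to -0.0071 in Klf13, -0.91 to -0.32 in Klf15 and 0.19 to 0.59 in Klf5, against -0.64 to -0.51 in Klf6 and -0.39 to -0.32 in Klf10. Klf15 has no value at a minimum mean of 50. Klf15 had 23 to 77 reads per library, and the other 9 members at least 351.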

Other observations

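The balance of the 2 most abundant members, a quantity chosen after the values were seen, does not depend on the scaling of the libraries. Per kilobase of exon, Klf6 exceeded Klf5 by 3.15, 3.34 and 2.65 times in Control replicates 1 to 3 and by 1.18, 2.10 and 1.66 times in Sox9cKO replicates 1 to 3. The groups were separate, and no test was made of a ratio picked in this way.

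Same-numbered pairs gave another view of the members. In 5 of the 10 (Klf4, Klf6, Klf7, Klf10 and Klf15) each Sox9cKO sample lay below the Control of its number, against 21.8% of all tested genes, and in Klf5 alone each lay above it (26.7%). Some of these pairs were near ties. Klf15 had 41 reads before scaling in both replicate 3 samples, and pair 1 of Klf4 differed by -0.0020 on the log2 scale.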
